A study of Homo sapiens with 48 samples.

Results

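The RNA of 50 respiratory chain genes was followed in AMO1 multiple myeloma cells during knockdown of IRE1 or XBP1. These were the 13 protein genes of the mitochondrial genome and 37 nuclear genes named for complex I, out of a count table of 58302 genes. The mitochondrial set was taken by name, and the nuclear set by the letters NDUF followed by A, B, C, S or V and a number. AMO1 is a human plasma cell line, and each of the 4 clones studied carried short hairpin RNAs that were switched on by doxycycline (Dox). Clones shIRE1 clone 1 and shIRE1 clone 3 targeted ERN1, the gene of the endoplasmic reticulum stress sensor IRE1, and clones shXBP1 clone 1 and shXBP1 clone 18 targeted XBP1, the transcription factor gene whose mRNA IRE1 splices. Every clone was sampled before Dox (0 h) and after 24, 48 and 72 h at 0.2 µg/ml, in 3 replicate flasks per time, which gave 16 groups of 3 and 48 libraries. The hairpin is in all 12 libraries of a clone, and Dox in all but those of 0 h, so within a clone the effect of Dox as such and that of the knockdown cannot be told apart. A clone stands for a single line, and libraries with a non-targeting hairpin were not analysed here. The p-values measure the spread between flasks within clones, and not that between clones.

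Respiratory complexes are built from both genomes. Complex I oxidises NADH and pumps protons, and its membrane arm holds the 7 subunits encoded in mitochondrial DNA (MT-ND1 to MT-ND6 and MT-ND4L), while the NDUF genes supply the rest, that is the NADH-binding tip, the ubiquinone-binding arm and the many accessory subunits. MT-CYB is the mitochondrial subunit of complex III, MT-CO1, MT-CO2 and MT-CO3 form the catalytic core of complex IV, and MT-ATP6 and MT-ATP8 belong to ATP synthase (complex V). Mitochondrial mRNAs are cut from long transcripts that cover nearly a whole strand, so their unequal levels depend in part on RNA processing and stability. Dox belongs to the tetracyclines, antibiotics that can inhibit translation on mitochondrial ribosomes. The libraries measured RNA and not protein or translation.

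Read depth ran from 19177855 to 40767202 counted reads per library, and all 50 genes passed the filter on low counts in all 4 clones. Levels are given as CPM, that is counts relative to a common library size after trimmed-mean (TMM) scaling. Calls come from edgeR's quasi-likelihood test at a Benjamini-Hochberg adjusted p under 0.05 over all genes tested, and changes are log2 ± standard error. ERN1 mRNA fell with Dox from 152 ± 2.37 to 102 ± 1.7 CPM at 72 h (mean ± SD, n = 3) in shIRE1 clone 1 and from 438 ± 15.4 to 125 ± 2.92 CPM in shIRE1 clone 3. XBP1 mRNA fell from 167 ± 7.65 to 34.0 ± 0.758 CPM in shXBP1 clone 1 and from 170.2 ± 6.67 to 37.9 ± 5.37 CPM in shXBP1 clone 18. XBP1 mRNA was also lower at 72 h in shIRE1 clone 1 (179 ± 4.27 to 138 ± 4.82 CPM) and shIRE1 clone 3 (217 ± 24.6 to 121 ± 3.13 CPM). ERN1 mRNA rose in shXBP1 clone 1 (188 ± 4.46 to 314 ± 3.07 CPM at 72 h) and fell in shXBP1 clone 18 (414 ± 3.96 to 339 ± 8.72 CPM at 48 h). All 9 plasma cell markers were detected in every library, from SDC1 at a median of 7260.4 CPM to XBP1 at 127 CPM. Of 10 markers of other cells CD3E was the highest at up to 17.3 CPM, with CD3D, COL3A1 and HBB at 0 in 42, 43 and 25 libraries.

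Some libraries stood apart. The library labelled shXBP1 clone 18, 72 h, replicate 3 lay nearer to shXBP1 clone 1 for 23 of the 23 genes that separated the shXBP1 clones at 0 h by at least 3 on the log2 scale. Every other shXBP1 library lay nearer to the other clone for at most 1 of them. In the shIRE1 clones only 3 genes were that far apart, and all 9 libraries of shIRE1 clone 3 with Dox lay nearer to clone 1 for 2 of them, so the measure could hardly tell those clones apart. Without the library that resembled clone 1, 2 libraries were left for shXBP1 clone 18 at 72 h. Their XBP1 mRNA was 40.1 and 41.7 CPM, and the change of XBP1 was -2.05 ± 0.06 (adjusted p = 3.74e-11). In shXBP1 clone 1 at 0 h, replicate 1 held more RNA of GC-rich nuclear members than its fellow replicates: the 6 members with a transcript GC content over 60% deviated by a median of 0.84 log2, and the other nuclear members by -0.01. It is singled out because it enters each change of its clone. The GC-rich members deviated nearly as far in shXBP1 clone 1 at 24 h, by 0.78 in replicate 2 and -0.76 in replicate 1, in shIRE1 clone 3, 72 h, replicate 3 (-0.74) and in shXBP1 clone 18, 24 h, replicate 1 (-0.65). Scale matters for sums: with plain CPM of nuclear genes in place of TMM scaling, every change in a summed level moves up by 0.11 to 0.17 log2 in the shIRE1 clones and by 0.042 to 0.060 in the shXBP1 clones.

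Per kilobase of the canonical transcript, the mitochondrial mRNAs were the more abundant ones before Dox. Over the 12 libraries at 0 h they ran from 1146 CPM per kb for MT-ATP8 to 6089.9 CPM per kb for MT-CO3, whereas among the nuclear members NDUFV2 had 2.76 CPM per kb and NDUFA1 208 CPM per kb. MT-ND4 came next to MT-CO3 at 4787 ± 613 CPM per kb (SD, n = 12), with MT-CO2 at 4538 ± 619 and MT-CO1 at 4247 ± 794 CPM per kb within that spread. Since the libraries were made from polyadenylated RNA, MT-ND6, the only protein gene of the light strand, whose mRNA lacks a stable poly(A) tail, may be under-represented in its level of 1298 ± 332 CPM per kb. MT-ATP8 overlaps MT-ATP6 and MT-ND4L overlaps MT-ND4 on the same mRNA, and how reads from the shared parts were counted is not given in the sources used here. Nor is the use of strand in counting, so reads of MT-ND6 and of RNA antisense to it cannot be told apart. Of the summed mitochondrial CPM, MT-CO1 made up 18.9%, MT-ND4 15.8% and MT-CO3 12.4% on average over the 48 libraries.

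The summed levels of the genomes took different courses. In shIRE1 clone 1 the mitochondrial sum was 43030.5 ± 511 CPM at 0 h (SD, n = 3), 35402 ± 823 at 24 h, 41615 ± 988 at 48 h and 42389 ± 1624 at 72 h. The groups at 0 and 24 h did not overlap, and those at 0 and 72 h did. With plain CPM of nuclear genes its changes at 48 and 72 h turned from -0.05 and -0.02 to 0.10 and 0.12 log2. In shIRE1 clone 3 it went from 34516 ± 4959 to 40989 ± 1835 CPM at 72 h, where the lowest 72 h library (39724 CPM) lay just above the highest of 0 h (39678 CPM). The libraries of shXBP1 clone 1 had 39165 ± 1477 CPM before Dox, 29719 ± 995 at 48 h and 31105 ± 391 at 72 h, with no overlap of the later libraries with those of 0 h. The sum of shXBP1 clone 18 was 38353 ± 1954 CPM at 0 h, 42065 ± 3375 at 24 h and 34934 ± 1598 at 72 h, or 34297 and 36753 CPM in the 2 libraries left without the one that resembled clone 1. The nuclear sum stayed between 2812 and 3144 CPM in all 16 group means. Its change at 72 h was -0.02 log2 in shIRE1 clone 1 and -0.14 in shIRE1 clone 3, which became 0.13 and 0.02 with plain CPM of nuclear genes. It was -0.12 in shXBP1 clone 1 and -0.01 in shXBP1 clone 18, which became -0.06 and 0.05. Without the library that resembled clone 1 the last pair was 0.0051 and 0.07.

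The log2 ratio of the sums does not depend on the scale. It was 3.87 ± 0.0033 before Dox in shIRE1 clone 1, 3.52 ± 0.053 at 24 h and 3.86 ± 0.057 at 72 h. For shIRE1 clone 3 it was 3.45 ± 0.17 at 0 h and 3.84 ± 0.087 at 72 h. In shXBP1 clone 1 it was 3.66 ± 0.055 and 3.45 ± 0.015, and in shXBP1 clone 18 it was 3.75 ± 0.074 and 3.63 ± 0.041, the latter 3.64 over the 2 libraries left without the one that resembled clone 1. The shIRE1 clones thus started at different ratios and ended close to each other. A second ratio set only the 7 mitochondrial genes of complex I against the 36 nuclear members other than NDUFA4. In shIRE1 clone 1 it was 2.89 at 0 h and 2.73 at 72 h, a larger fall than with all 13. For shIRE1 clone 3 it was 2.33 at 0 h and 2.62 at 72 h. In these bulk samples, fewer cells of a kind and less RNA per cell cannot be told apart.

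**Figure D1:**
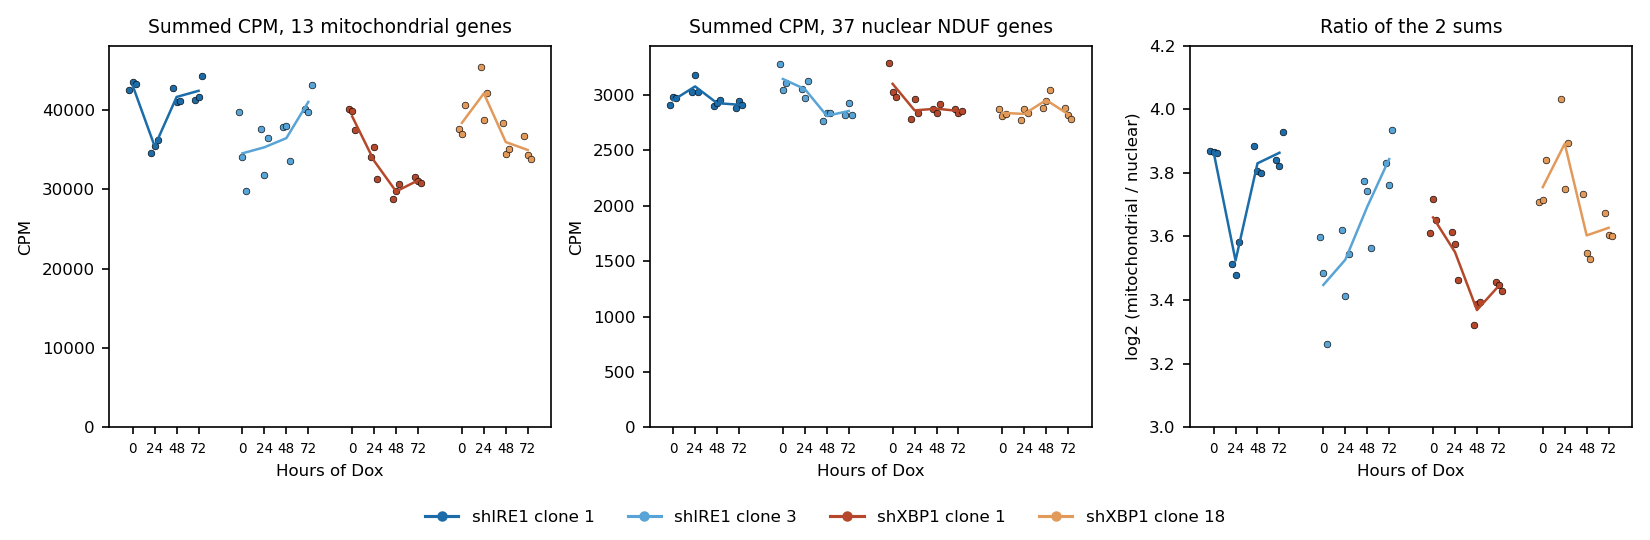
Summed CPM of the 13 mitochondrial genes (left), of the 37 nuclear NDUF genes (middle) and the log2 ratio of the sums (right, axis from 3.0 to 4.2) against hours of Dox in each clone; points are libraries and lines join group means. The mitochondrial sum of shXBP1 clone 1 fell from 39165 to 31105 CPM, that of shIRE1 clone 1 dipped to 35402 CPM at 24 h, and the nuclear sums stayed near 3000 CPM.

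Most mitochondrial genes were lower at 24 h in shIRE1 clone 1 and at every time in shXBP1 clone 1. At 24 h in shIRE1 clone 1, 11 of 13 were lower and 1 higher, beside 29% lower and 32.4% higher among all genes tested. At 48 h, 5 were lower and 3 higher (31.5% and 33.9% of all genes), and at 72 h again 5 and 3 (31.1% and 32.5%). The 5 at 72 h were MT-ND4L, MT-ND4, MT-ND5, MT-ND6 and MT-CYB, which are neighbours in the genome, with MT-ND6 on the other strand, and the 3 higher ones were MT-CO1, MT-CO3 and MT-ND3. The median mitochondrial change was -0.27 log2 at 24 h and -0.03 at 72 h, against 0.04 and 0.02 over all genes.

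shIRE1 clone 3 went another way. At 24 h, 2 mitochondrial genes were higher and 1 lower (22.8% and 23.3% of all genes). The counts were 2 and 3 at 48 h (31.6% and 31.6%) and 7 and 1 at 72 h (29.7% and 30.5%), with a median of 0.25 log2 at 72 h. These counts leaned on single libraries, and the 0 h flasks of this clone were spread widely. No call was left at 24 h on leaving out 0 h replicate 2 or, in turn, replicate 3 of 24 h. Leaving out replicate 2 or 3 of 0 h or replicate 3 of 72 h turned the 8 calls at 72 h into 4, and leaving out replicate 2 of 72 h turned them into 5.

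With Dox in shXBP1 clone 1, 8, 11 and 9 mitochondrial genes were lower at the 3 times, and no gene was called higher. The background was 12.8% lower and 13.9% higher of all genes at 24 h, 15.5% and 16.6% at 48 h, and 16.8% and 16.8% at 72 h. Without 0 h replicate 1 the counts of lower genes were 7, 10 and 8. For shXBP1 clone 18 edgeR called 0 of the 13 at 24 h (0.291% of all genes higher and 1.3% lower), where 6 had an unadjusted p under 0.05. DESeq2 called 3 of all 50 members at that time, and its share of all genes is not given here. By edgeR 1 gene was called at 48 h (2.28% and 3.5%) and 1 at 72 h (4.41% and 5.55%), MT-CO1 and lower both times. The call at 48 h was lost on leaving out any 1 of the 6 libraries, and that at 72 h on leaving out 0 h replicate 1 or 3. With the library that resembled clone 1 left out of the fit, 2 genes were higher at 24 h and 1 lower at 48 and at 72 h. Shares of all genes in these fits, and in those without shXBP1 clone 1, 0 h, replicate 1, are not given here. The shares above come from fits with all libraries of a clone.

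**Figure D2:**
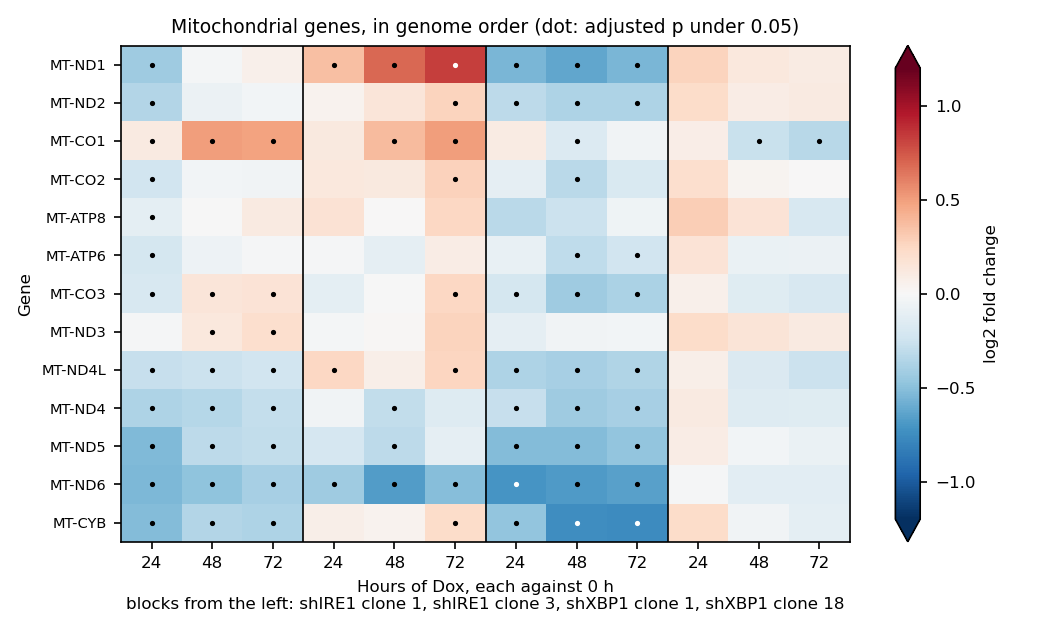
Log2 change of each mitochondrial protein gene (rows, in genome order) at 24, 48 and 72 h of Dox against 0 h, in 4 blocks of columns for shIRE1 clone 1, shIRE1 clone 3, shXBP1 clone 1 and shXBP1 clone 18; red is higher, blue lower, and a dot marks an adjusted p under 0.05. MT-ND6 is blue in the first 3 blocks and MT-CO1 red at 48 and 72 h in the first 2, while shXBP1 clone 18 has 2 dots in all.

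MT-CO1 (GRCh38 chrM:5904-7445, plus strand, a single exon without introns), the catalytic subunit of complex IV, rose in both shIRE1 clones. In shIRE1 clone 1 its libraries held 5477, 5700.4 and 5523 CPM at 0 h and 7592, 7584 and 8179 CPM at 72 h, and in shIRE1 clone 3 they held 7196, 6076 and 5495 and 8839, 8581 and 9341 CPM. In each clone all 3 libraries of 72 h lay above all of 0 h, by 0.48 ± 0.04 (adjusted p = 1.34e-09) and 0.50 ± 0.09 (adjusted p = 1.81e-04) on the log2 scale. In shXBP1 clone 1 MT-CO1 was called lower at 48 h, at 5292, 5348 and 5519 CPM against 5942, 6041 and 5868 CPM at 0 h, without overlap. Its change in that clone at 72 h was -0.05 ± 0.05 (adjusted p = 0.468). In shXBP1 clone 18 the libraries fell from 8256, 8279.6 and 8741 to 7159.6, 6649 and 6210.4 CPM, with no overlap, a change of -0.33 ± 0.07 (adjusted p = 0.0125), or -0.28 ± 0.07 (adjusted p = 0.0183) without the library that resembled clone 1. That fall was not called when replicate 1 or 3 of 0 h was left out (log2 -0.33 and -0.29).

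MT-ND6 (chrM:14149-14673, minus strand) fell at all 3 times in shIRE1 clone 1, shIRE1 clone 3 and shXBP1 clone 1. Its libraries in shIRE1 clone 1 held 902, 925 and 983 CPM before Dox and 638, 643 and 660.2 CPM at 24 h, without overlap (-0.54 ± 0.04, adjusted p = 9.09e-10). Those of shXBP1 clone 1 held 625, 574 and 643 CPM and 382, 403 and 359 CPM, again without overlap (-0.71 ± 0.05, adjusted p = 5.96e-06). For shIRE1 clone 3 the 24 h libraries (670.1, 383 and 454 CPM) overlapped those of 0 h (776, 667 and 577 CPM), and those of 48 h (447, 448 and 383 CPM) did not. The change in shXBP1 clone 18 at 72 h was -0.13 ± 0.08 (adjusted p = 0.308), or -0.12 without the library that resembled clone 1.

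MT-ND1 (chrM:3307-4262, plus strand), a subunit that lines the ubiquinone channel, moved in opposite directions. It went in shIRE1 clone 3 from 2961, 2331 and 1999 CPM to 4287, 4248 and 4539 CPM at 72 h, the largest rise of any mitochondrial gene in that clone at 0.83 ± 0.10 (adjusted p = 5.36e-06). The course in shXBP1 clone 1 was from 3962, 3725 and 3469.9 to 2632, 2515 and 2612 CPM, a change of -0.55 ± 0.07 (adjusted p = 1.22e-04). Neither pair of groups overlapped. It dropped to 2798, 2856 and 3017 CPM in shIRE1 clone 1 at 24 h from 3878, 3874 and 3909 CPM and was back at 3939, 3868 and 4344 CPM at 72 h, where the change was 0.06 ± 0.05 (adjusted p = 0.317).

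MT-CYB (chrM:14747-15887, plus strand) showed the largest mitochondrial fall of any clone, from 4669, 4272 and 4206 CPM to 2658, 2661 and 2612 CPM in shXBP1 clone 1, or -0.75 ± 0.05 (adjusted p = 2.00e-06), with no overlap. In shIRE1 clone 1 it also fell, from 4417, 4475 and 4549.6 to 3376, 3425 and 3586 CPM (-0.37 ± 0.04, adjusted p = 3.28e-08). The shIRE1 clone 3 libraries of 0 h (3462, 2914 and 2512 CPM) and 72 h (3436, 3325 and 3642 CPM) overlapped. The call at 72 h (0.22 ± 0.09, adjusted p = 0.0487) was lost without any 1 of 5 of the 6 libraries, the exception being 0 h replicate 1. Of the remaining complex I genes, MT-ND5 was lower in shIRE1 clone 1 and shXBP1 clone 1 at each time, with changes of -0.29 to -0.53 and -0.48 to -0.52. MT-ND2 and MT-ND4 were lower in shXBP1 clone 1 at each time, with changes of -0.31 to -0.37 and -0.28 to -0.42. In shIRE1 clone 1, MT-ND4 was lower at each time (-0.29 to -0.37) and MT-ND2 at 24 h (-0.35). Both MT-ND4 and MT-ND5 were lower in shIRE1 clone 3 at 48 h (-0.30 and -0.31), MT-ND4 not without replicate 1 of 0 h or replicate 3 of 48 h. MT-ND2 was higher in shIRE1 clone 3 at 72 h (0.26 ± 0.10, adjusted p = 0.036), where its libraries went from 2691, 2279 and 1974 to 2771, 2733 and 2905 CPM without overlap. That call was lost without any 1 of 5 of the 6 libraries, all but 0 h replicate 1. MT-ND3 was called only in shIRE1 clone 1, where it was higher at 48 and 72 h (0.13 and 0.20). The call at 48 h was lost when replicate 1 or 3 of 0 h or replicate 1 of 48 h was left out. MT-ND4L was lower in shIRE1 clone 1 at 72 h (-0.23) and higher in shIRE1 clone 3 (0.26), the latter not when replicate 2 or 3 of either time was left out.

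MT-CO2, MT-CO3, MT-ATP6 and MT-ATP8, the other subunits of complexes IV and V, also moved in both directions. MT-CO3 was higher at 72 h in shIRE1 clone 1 (0.17 ± 0.04, adjusted p = 0.00259) and shIRE1 clone 3 (0.25 ± 0.09, adjusted p = 0.0249) and lower in shXBP1 clone 1 (-0.38 ± 0.04, adjusted p = 5.92e-05, after -0.21 and -0.43 at 24 and 48 h). The shIRE1 clone 3 call was lost when replicate 2 or 3 of 0 h or replicate 3 of 72 h was left out. MT-CO2 was higher in shIRE1 clone 3 at 72 h (0.27, not called without 0 h replicate 3) and lower at 24 h in shIRE1 clone 1 (-0.23) and at 48 h in shXBP1 clone 1 (-0.32). MT-ATP6 was lower in shIRE1 clone 1 at 24 h (-0.21) and at 48 and 72 h in shXBP1 clone 1 (-0.30 and -0.23). MT-ATP8, at under 1% of the mitochondrial sum, was called once, at 24 h in shIRE1 clone 1 (-0.12), and not when replicate 2 or 3 of either time was left out.

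**Figure D3:**
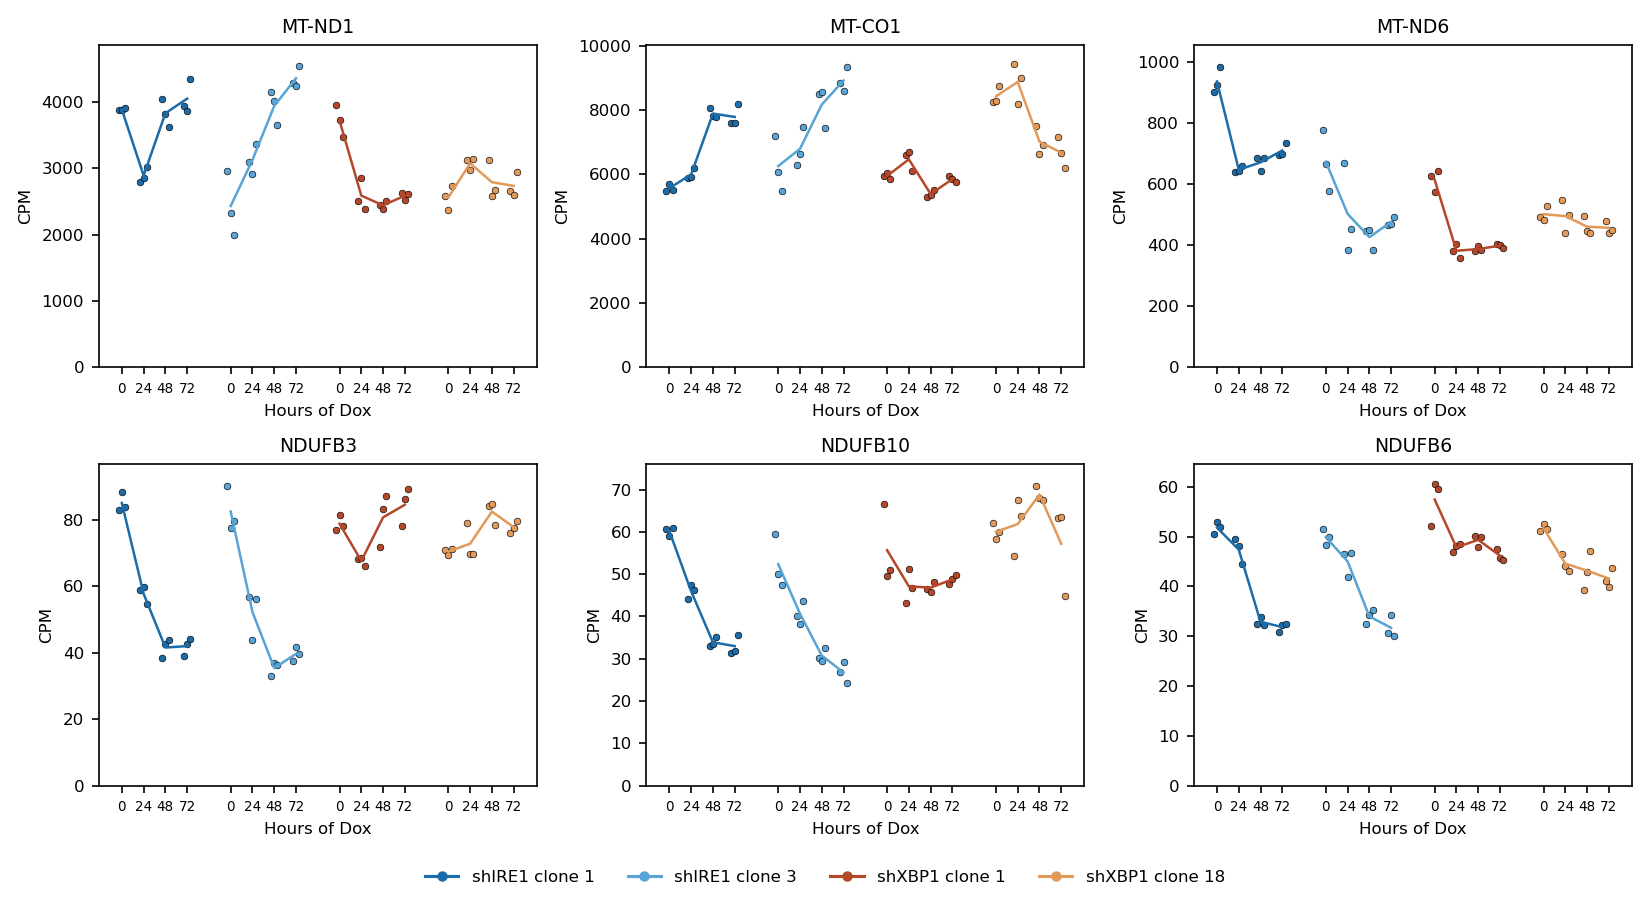
CPM of 3 mitochondrial genes (top) and 3 nuclear genes (bottom) in all 48 libraries against hours of Dox, by clone; points are libraries, lines join group means, and axes start at 0. NDUFB3, NDUFB10 and NDUFB6 fell in both shIRE1 clones, NDUFB3 to about 40 CPM, and MT-CO1 rose in them, whereas MT-ND1 rose in shIRE1 clone 3 and fell in shXBP1 clone 1.

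Most nuclear complex I genes were lower in each shIRE1 clone at 48 and 72 h, and 16 of the 37 were lower in both clones at each of these times. How many of all genes were lower in both clones was not counted, so these 16 have no background. Of the 37, 13 were lower and 8 higher at 24 h in shIRE1 clone 1, 20 and 6 at 48 h, and 22 and 6 at 72 h. At 24 h 35.1% were lower beside 29% of all genes, and 21.6% higher beside 32.4%. At 72 h 59.5% were lower beside the 31.1% of all genes given above, and 16.2% higher beside 32.5%. For shIRE1 clone 3, 11 were lower and 2 higher at 24 h, 21 and 2 at 48 h, and 21 and 1 at 72 h. The last were 56.8% lower and 2.70% higher beside 30.5% and 29.7% of all genes. Those of 24 h were 29.7% lower and 5.41% higher beside 23.3% and 22.8%. No nuclear gene was higher in both clones at 72 h. The median nuclear change was -0.19 log2 in shIRE1 clone 1 and -0.21 in shIRE1 clone 3 at 72 h, against 0.02 over all genes in each.

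The nuclear counts in shXBP1 clone 1 were 14 lower and 1 higher at 24 h, 13 and 2 at 48 h, and 14 and 1 at 72 h. The 37.8%, 35.1% and 37.8% lower stand beside 12.8%, 15.5% and 16.8% of all genes, and the 2.70%, 5.41% and 2.70% higher beside 13.9%, 16.6% and 16.8%. The median change at 72 h was -0.19. A single library weighed on them. Without 0 h replicate 1, which was rich in GC-rich members, 11, 7 and 7 of the 37 genes were lower. At 48 and 72 h, 7 of 37 lies near the 15.5% and 16.8% of all genes in the fits with all libraries. The share of all genes in the fit without that library is not given here. Whether the excess of lower nuclear genes at 48 and 72 h holds without it therefore cannot be told. The count of called nuclear genes, 15 at each time, was 9 at 24 h on leaving out replicate 1 of that time and 8 on leaving out its replicate 3. At 48 h it was 6 on leaving out replicate 2 of that time, and at 72 h 7 and 8 on leaving out its replicates 2 and 3. For shXBP1 clone 18 no nuclear gene was called at 24 h by edgeR (4 had an unadjusted p under 0.05), 3 were higher and 1 lower at 48 h, and 1 was lower at 72 h, that is 8.11% higher at 48 h beside 2.28% of all genes, and 2.70% lower at both times beside 3.5% and 5.55%. Those at 48 h (NDUFB3, NDUFA12 and NDUFS5 higher, NDUFB6 lower) were all lost on leaving out any 0 h library or replicate 1 or 2 of 48 h. At 72 h the count of 1 went to 0 on leaving out any 1 of the 0 h libraries, 4 on leaving out replicate 1 of 72 h, and 2 on leaving out its replicate 2 or the library that resembled clone 1.

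**Figure D4:**
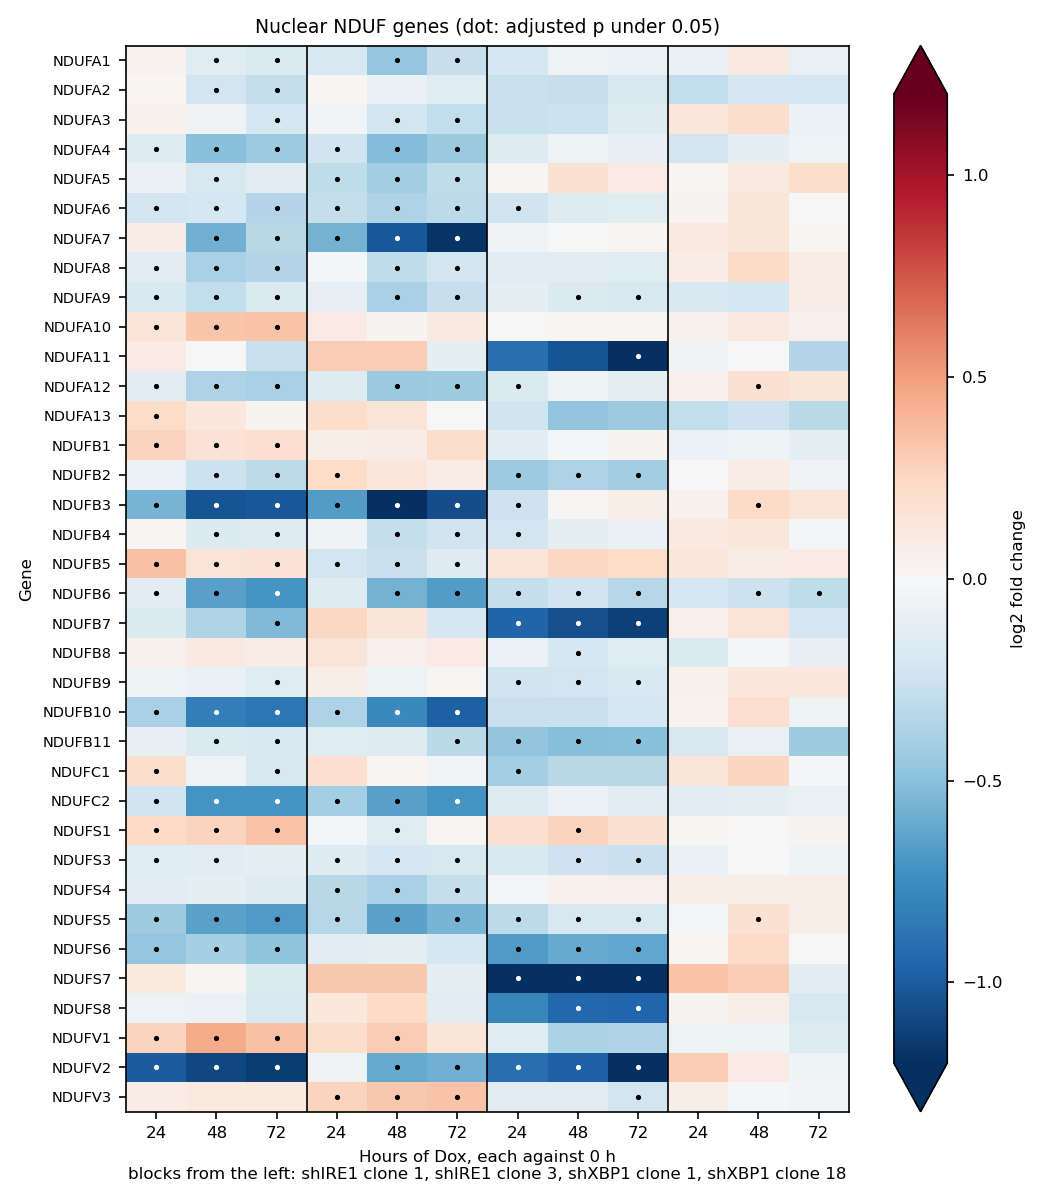
Log2 change of 36 of the 37 nuclear NDUF genes (rows) at 24, 48 and 72 h of Dox against 0 h, in 4 blocks of columns for shIRE1 clone 1, shIRE1 clone 3, shXBP1 clone 1 and shXBP1 clone 18; red is higher, blue lower, and a dot marks an adjusted p under 0.05. Blue prevails in both shIRE1 blocks at 48 and 72 h, where 22 and 21 of all 37 genes were lower at 72 h, and shXBP1 clone 18 is nearly blank.

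NDUFB3 (GRCh38 chr2:201071433-201085750, plus strand), an accessory subunit of the membrane arm, fell most in the shIRE1 clones when NDUFV2 and NDUFA7, with their low counts, are set aside. Its libraries in shIRE1 clone 1 held 83.1, 88.4 and 83.8 CPM at 0 h, 58.8, 59.8 and 54.7 at 24 h, 38.4, 42.6 and 43.8 at 48 h and 39.1, 42.7 and 44.2 at 72 h. Those in shIRE1 clone 3 held 90.3, 77.7 and 79.6 CPM at 0 h and 37.5, 41.8 and 39.7 at 72 h. By 24 h no library overlapped those of 0 h in either clone, and the changes at 72 h were -1.02 ± 0.06 (adjusted p = 9.93e-12) and -1.07 ± 0.09 (adjusted p = 1.20e-07). For shXBP1 clone 1 the libraries of 0 h (77.1, 81.4 and 78.1 CPM) and 72 h (78.1, 86.3 and 89.3 CPM) overlapped (0.08 ± 0.07, adjusted p = 0.427). Those of shXBP1 clone 18 at 72 h (76.2, 77.6 and 79.8 CPM) lay above those of 0 h (70.9, 69.3 and 71.2 CPM), and the change of 0.15 ± 0.06 (adjusted p = 0.135) was not called, nor was that of 0.13 without the library that resembled clone 1.

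NDUFB10 (chr16:1959538-1961975, plus strand) and NDUFB6 (chr9:32553001-32573184, minus strand), also accessory subunits of the membrane arm, fell in both shIRE1 clones. NDUFB10 went from 60.6, 59.1 and 60.8 CPM to 31.4, 31.9 and 35.7 CPM in shIRE1 clone 1 (-0.87 ± 0.05, adjusted p = 6.24e-11), with no overlap. It went from 59.6, 50.1 and 47.4 to 26.8, 29.2 and 24.2 CPM in shIRE1 clone 3 (-0.98 ± 0.09, adjusted p = 3.20e-07), also with no overlap. For shXBP1 clone 18 its 72 h libraries held 63.2, 63.5 and 44.8 CPM, where the low value belongs to the library that resembled clone 1. NDUFB6 was the one member lower in all 4 clones, at 48 and at 72 h. How many of all genes were lower in all 4 clones was not counted. At 72 h NDUFB6 changed by -0.71 ± 0.05 (adjusted p = 9.86e-10) in shIRE1 clone 1 and -0.67 ± 0.07 (adjusted p = 1.04e-06) in shIRE1 clone 3. The changes were -0.34 ± 0.07 (adjusted p = 0.00339) in shXBP1 clone 1 and -0.31 ± 0.07 (adjusted p = 0.0176) in shXBP1 clone 18, the last being -0.35 ± 0.07 (adjusted p = 0.00928) without the library that resembled clone 1. Its libraries went from 51.0, 52.5 and 51.5 to 41.2, 39.9 and 43.7 CPM in shXBP1 clone 18, without overlap, and the fall there was smaller in size than in either shIRE1 clone. It was not called without any 1 of the 0 h libraries.

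NDUFS5, NDUFC2 and NDUFA4 followed the same course in the shIRE1 clones. NDUFS5, an accessory subunit, went from 88.0, 96.5 and 89.6 CPM to 54.3, 58.9 and 58.2 CPM in shIRE1 clone 1 (-0.68 ± 0.05, adjusted p = 5.82e-10) and changed by -0.56 ± 0.08 (adjusted p = 3.51e-05) in shIRE1 clone 3. It was also lower in shXBP1 clone 1, with a change of -0.19 ± 0.06 (adjusted p = 0.0251), a call lost on leaving out any 1 of 5 of the 6 libraries, all but 0 h replicate 3. NDUFC2, a membrane arm subunit whose exons overlap a read-through gene, changed by -0.70 ± 0.07 (adjusted p = 8.72e-08) and -0.72 ± 0.12 (adjusted p = 8.77e-05). NDUFA4, named for complex I and assigned by later work to complex IV, fell from 65.1, 68.3 and 65.1 to 45.4, 52.4 and 48.9 CPM in shIRE1 clone 1 (-0.44 ± 0.05, adjusted p = 7.69e-07). It also fell from 69.6, 59.2 and 57.5 to 44.5, 45.9 and 47.9 CPM in shIRE1 clone 3 (-0.44 ± 0.08, adjusted p = 2.99e-04). Neither shXBP1 clone had a call for NDUFC2 or NDUFA4. The other genes lower in both shIRE1 clones at 72 h were NDUFA1, NDUFA3, NDUFA6, NDUFA7, NDUFA8, NDUFA9, NDUFA12, NDUFB4, NDUFB11 and NDUFV2. Their changes ran from -1.14 (NDUFV2 in shIRE1 clone 1) and -1.18 (NDUFA7 in shIRE1 clone 3) up to -0.16 (NDUFB4 in shIRE1 clone 1, not called without 0 h replicate 2).

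NDUFV1 and NDUFS1, core subunits that carry cofactors, were higher in shIRE1 clone 1 at all 3 times. NDUFV1, the flavin- and NADH-binding subunit, was higher in shIRE1 clone 1 at 72 h, at 205, 187 and 184 CPM against 142, 147 and 162 CPM (0.35 ± 0.07, adjusted p = 1.62e-04). In shIRE1 clone 3 it was higher at 48 h (0.31 ± 0.09, adjusted p = 0.00967), and at 72 h its libraries (209.7, 217 and 169.7 CPM) overlapped those of 0 h (172, 174 and 189 CPM). NDUFS1, the large iron-sulphur subunit, was higher in shIRE1 clone 1 at 72 h (0.34 ± 0.04, adjusted p = 3.97e-07), and its change in shIRE1 clone 3 was 0.01 ± 0.05 (adjusted p = 0.829). At 48 h it was lower in shIRE1 clone 3 (-0.15, not called without 48 h replicate 3) and higher in shXBP1 clone 1 (0.27). NDUFS3, a core subunit without a cluster, was lower in shIRE1 clone 3 at each time, with changes of -0.16 to -0.20, though not at 24 h without 24 h replicate 3. It was also lower in shIRE1 clone 1 at 24 and 48 h (-0.15 and -0.13), calls lost on leaving out any 1 of 4 and of 6 libraries. In shXBP1 clone 1 it was lower at 48 and 72 h (-0.24 and -0.27), the former not called without 0 h replicate 1 or without replicate 2 or 3 of 48 h.

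Of the accessory subunits, NDUFB5 rose in shIRE1 clone 1 (from 148, 145 and 140.3 to 157, 164 and 168 CPM at 72 h, 0.17 ± 0.05, adjusted p = 0.00373). It was lower in shIRE1 clone 3 (-0.15 ± 0.06, adjusted p = 0.0479). There the 0 h libraries (205, 182 and 182 CPM) and those of 72 h (160.5, 173 and 183 CPM) overlapped, and the call was lost when replicate 1 of either time or replicate 2 of 72 h was left out. NDUFA10 rose in shIRE1 clone 1, by 0.35 ± 0.04 (adjusted p = 7.50e-08), and was not called in the other clones. NDUFV3 rose in shIRE1 clone 3, from 42.2 ± 0.613 to 53.7 ± 2.08 CPM (SD, n = 3) with no overlap (0.34 ± 0.06, adjusted p = 1.29e-04), and was the single nuclear member higher there at 72 h. NDUFB2 and NDUFS6 were lower in shIRE1 clone 1 and shXBP1 clone 1, with changes of -0.31 ± 0.05 and -0.42 ± 0.06 for NDUFB2 and -0.48 ± 0.05 and -0.63 ± 0.13 for NDUFS6 at 72 h.

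Counts for some members are uncertain. NDUFV2, a catalytic subunit of the NADH-binding tip, had 25 to 107 reads per library, or 0.795 to 3.58 CPM, while the row of its pseudogene NDUFV2P1 had 265 to 540 reads. Reads of a near-identical copy can be given to either row or dropped, and the low level of NDUFV2 is therefore no measure of the gene. Its row was lower at 72 h in shIRE1 clone 1 (-1.14 ± 0.18, adjusted p = 2.03e-05), shIRE1 clone 3 (-0.58 ± 0.21, adjusted p = 0.0286) and shXBP1 clone 1 (-1.37 ± 0.20, adjusted p = 4.39e-04). The call in shIRE1 clone 3 was lost when replicate 2 or 3 of either time was left out. NDUFA7, with 51 to 149 reads, shares 32.5% of its exon bases with a read-through gene. Over all members the rows of pseudogenes held at most 1.23% of the reads of the mitochondrial genes and 1.17% of those of the nuclear ones.

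GC content went with the nuclear changes in shXBP1 clone 1. Over the 37 genes, the Pearson correlation of GC content and log2 change was -0.61, -0.74 and -0.64 at 24, 48 and 72 h, and without 0 h replicate 1 it was -0.31, -0.61 and -0.48. The genes of a comparison share their libraries, so these are descriptions. NDUFS7, the iron-sulphur subunit next to the ubiquinone site and the member with the highest GC content (66.9%), held 74.1, 25.8 and 22.8 CPM at 0 h and 16.4, 12.1 and 12.1 CPM at 72 h. Its change was -1.61 ± 0.46 (adjusted p = 0.018) with all libraries and -0.86 (adjusted p = 0.0928) without 0 h replicate 1. NDUFB7, NDUFS8 and NDUFA11 had -1.12, -0.96 and -1.24 with it, all called, and -0.81, -0.58 and -0.81 without it, none called. All 4 calls were also lost when replicate 2 or 3 of 72 h was left out. The correlation was 0.13, 0.21 and 0.07 in shIRE1 clone 1, 0.53, 0.53 and 0.19 in shIRE1 clone 3, and 0.07, 0.13 and -0.56 in shXBP1 clone 18, where the last was -0.59 without the library that resembled clone 1. Deviations of a single library from its replicates also ran with GC content, with correlations from -0.86 to 0.86 over the 48 libraries. The part of GC content in the changes was not tested.

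**Figure D5:**
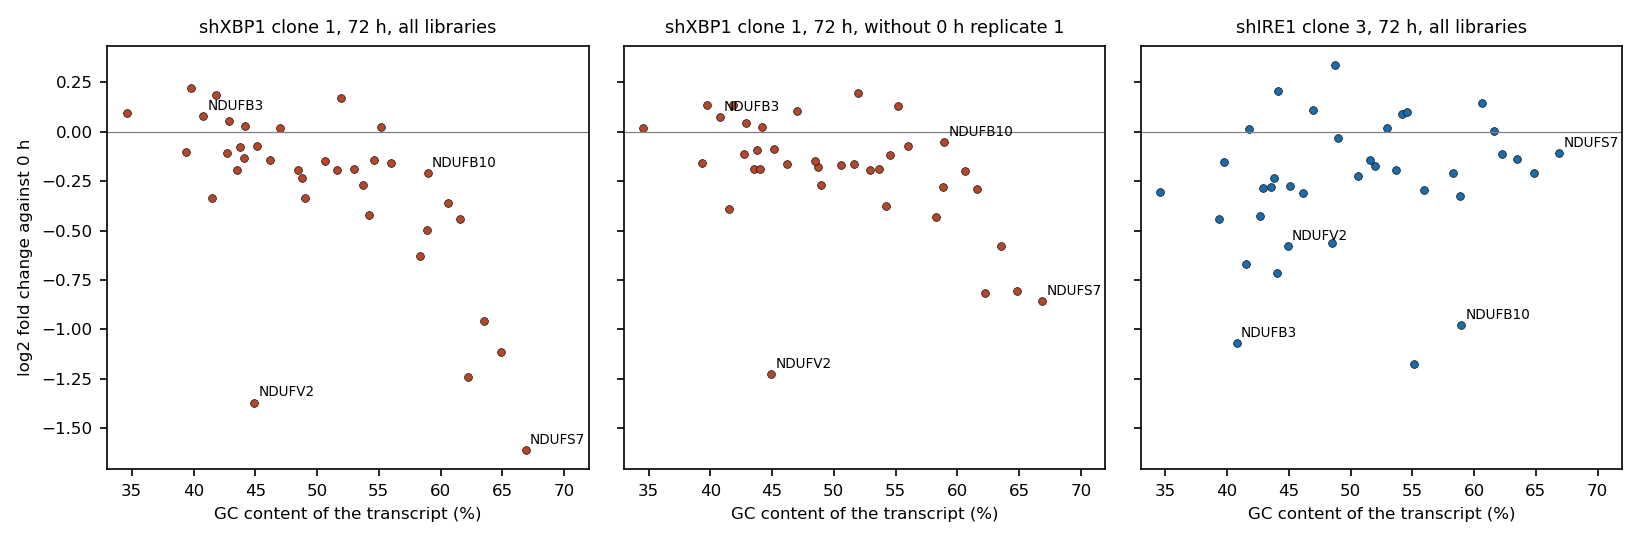
Log2 change at 72 h against the GC content of the canonical transcript (%) for the 37 nuclear genes, in shXBP1 clone 1 with all libraries (left), the same without 0 h replicate 1 (middle), and in shIRE1 clone 3 (right); each point is a gene. NDUFS7, at 66.9% GC, moves from -1.61 to -0.86 when that library is left out, whereas NDUFB3 and NDUFB10 lie low in shIRE1 clone 3 at 40.8% and 59.0% GC.

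Responses to the hairpins were then set directly against each other. The contrast of the mean response of the shIRE1 clones with that of the shXBP1 clones was fitted on all 48 libraries. Each hairpin had 2 clones, and the p-values of this contrast do not measure the spread between clones. Called in either direction were 26% of the 50 members at 24 h, 50% at 48 h and 56% at 72 h, beside 38.7%, 56.9% and 55.3% of all genes. At 24 h edgeR called 0 of the 13 mitochondrial genes (1 had an unadjusted p under 0.05). Of the nuclear genes it called 8 higher and 5 lower under shIRE1 (19.1% and 19.7% of all genes). That mitochondrial count became 4 without shIRE1 clone 3, 0 h, replicate 3 or without its 24 h replicate 1. It became 1 without shXBP1 clone 1, 0 h, replicate 1, shXBP1 clone 18, 0 h, replicate 3 or shXBP1 clone 18, 24 h, replicate 2. At 48 h, 4 mitochondrial genes were higher and none lower, and 6 nuclear genes were higher and 15 lower (28.9% and 28%). At 72 h the counts were 7 and 0, and 6 and 15 (28% and 27.4%). In both later times the nuclear genes lower under shIRE1 made up 40.5% of the 37. Without shXBP1 clone 1, 48 h, replicate 3 the mitochondrial count at 48 h was 7, and without the library that resembled clone 1 the counts at 72 h were 6 and 0 mitochondrial and 6 and 15 nuclear.

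At 48 h the largest difference was that of NDUFB3, -1.26 ± 0.08 (adjusted p = 2.94e-17). It was followed among the lower ones by NDUFA7 (-0.88 ± 0.18, adjusted p = 5.91e-05) and NDUFB10 (-0.77 ± 0.10, adjusted p = 2.12e-08), and then by NDUFS5 (-0.65 ± 0.06, adjusted p = 2.89e-11) and NDUFC2 (-0.60 ± 0.10, adjusted p = 1.32e-06). MT-CO1 was 0.65 ± 0.07 (adjusted p = 1.86e-10) higher under shIRE1 at 48 h and MT-ND1 0.58 ± 0.09 (adjusted p = 2.96e-07), with MT-CO3 and MT-CYB at 0.35 ± 0.07 and 0.23 ± 0.07. MT-CYB at 48 h lay below all 0 h libraries in shIRE1 clone 1 (3588, 3455 and 3486 CPM) and shXBP1 clone 1 (2587, 2627 and 2696 CPM). In the other clones its libraries of 48 h overlapped those of 0 h. NDUFV1 (0.59 ± 0.12, adjusted p = 7.39e-05), NDUFV3 (0.29 ± 0.05, adjusted p = 9.56e-06) and NDUFA13 (0.50 ± 0.14, adjusted p = 0.0035), also known as GRIM-19, were higher as well. NDUFS7 (0.78) and NDUFS8 (0.51) lost their calls without shXBP1 clone 1, 0 h, replicate 1, at 0.40 and 0.32, and without 14 and 10 other single libraries. NDUFV1, NDUFA13, NDUFS7 and NDUFS8 all have a transcript GC content over 60%. Over the nuclear members the Pearson correlation of GC content and this difference was 0.65, 0.62 and 0.56 at 24, 48 and 72 h. Without shXBP1 clone 1, 0 h, replicate 1 it was 0.485, 0.52 and 0.44. The part of GC content in these differences was not tested.

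Clones with the same hairpin were compared in the same way. The response of shIRE1 clone 1 minus that of shIRE1 clone 3 was called for 13, 10 and 12 members at 24, 48 and 72 h. These are 26%, 20% and 24% of the members, below the 28.2%, 30.8% and 27.5% of all genes called in either direction. Of these 7, 2 and 5 were mitochondrial (53.8%, 15.4% and 38.5% of the 13), all lower in clone 1. MT-ND1 and MT-CYB differed at each time, at 72 h by -0.78 ± 0.12 (adjusted p = 3.43e-06) and -0.60 ± 0.10 (adjusted p = 8.88e-06). NDUFB5 differed the other way, by 0.31 ± 0.11 (adjusted p = 0.0259), and lost its call at 72 h without any 1 of 5 libraries. The count of mitochondrial genes was 4 at 24 h without shIRE1 clone 3, 0 h, replicate 3, and 4 at 48 h without its replicate 1. It was 3 at 72 h without its replicate 3, without shIRE1 clone 1, 0 h, replicate 2 or without shIRE1 clone 3, 72 h, replicate 3. The nuclear count at 72 h, 7, was 4 without shIRE1 clone 3, 0 h, replicate 1.

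Between the shXBP1 clones 17, 23 and 11 members differed at 24, 48 and 72 h (34%, 46% and 22%, beside 17.1%, 24.1% and 24.6% of all genes), most of them lower in clone 1. MT-CYB, MT-ND1, MT-ND2, MT-ND5 and MT-ND6 differed at each time, with MT-CYB at -0.69 ± 0.10 (adjusted p = 1.55e-06) and MT-ND6 at -0.54 ± 0.15 (adjusted p = 0.00687) at 48 h. NDUFS6 did too, by -0.82 ± 0.15 (adjusted p = 6.24e-05). The nuclear count at 48 h fell from 16 to 9 without shXBP1 clone 1, 0 h, replicate 1. At 24 h it went from 10 to 16 without 24 h replicate 2 of that clone, and at 72 h from 5 to 9 without its 0 h replicate 2, 8 without its 0 h replicate 3 and 8 without shXBP1 clone 18, 72 h, replicate 2. Without the library that resembled clone 1 the count of mitochondrial genes at 24 h was 9 in place of 7, and at 72 h 7 nuclear genes were called.

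Before Dox the clones already stood apart. Of the 50 members 44% differed between the shIRE1 clones, beside 40.6% of all genes, and 42% between the shXBP1 clones, beside 51.3%. Of the 13 mitochondrial genes 76.9% and 38.5% did. shIRE1 clone 1 had 9 mitochondrial genes higher and 1 lower than shIRE1 clone 3, and 8 nuclear genes higher and 4 lower (19.2% and 21.4% of all genes). MT-ND1 was 0.68 ± 0.09 (adjusted p = 3.08e-08) and MT-CYB 0.60 ± 0.07 (adjusted p = 4.61e-09) higher. MT-CO1 was the one that was lower (-0.17 ± 0.07, adjusted p = 0.0491), a call lost without any 1 of the 0 h libraries of these clones but shIRE1 clone 3 replicate 3. NDUFB5 differed by -0.39 ± 0.08. In turn, shXBP1 clone 1 had 4 mitochondrial genes higher and 1 lower than shXBP1 clone 18, and 14 nuclear genes higher and 2 lower (24.5% and 26.8% of all genes). MT-ND1 and MT-CYB were again higher, by 0.54 ± 0.09 and 0.43 ± 0.07, and MT-CO1 differed by -0.50 ± 0.07. NDUFA9 differed by 0.55 ± 0.08 (adjusted p = 1.72e-07) and NDUFB11 by -0.60 ± 0.15 (adjusted p = 7.89e-04). NDUFB11 held 78.9 to 101.9 CPM in 11 libraries of shXBP1 clone 18 and 41.3 CPM in the one that resembled clone 1. The 0 h libraries of a clone also enter each of its changes, so a difference at 0 h and a difference in response share them.

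Promoters are shown for 4 of the nuclear genes, with what a search for binding motifs of known regulators found. NRF1, ETS factors such as GABPA, and YY1 are regulators of respiratory chain genes in the nucleus. The RefSeq table (GRCh38.p14) held windows from 250 bases before to 50 after the start for 31 of the 37 nuclear members. Below are the bases from 90 before to 30 after the start, 5′ to 3′ on the strand of the gene, with motif matches in capitals. NDUFA7 and NDUFA8 were lower in both shIRE1 clones and hold a match. NDUFB3, which fell most when NDUFV2 and NDUFA7 are set aside, holds none in its window. NDUFS7 holds 2 and was not called in a shIRE1 clone. NDUFB10 and NDUFB6, lower in both shIRE1 clones and not printed here, hold none in the same stretch.
NDUFA7, chr19:8321346-8321465, minus strand: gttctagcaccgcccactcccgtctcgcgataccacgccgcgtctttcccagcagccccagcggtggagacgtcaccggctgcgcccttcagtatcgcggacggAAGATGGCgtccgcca
NDUFA8, chr9:122159750-122159869, minus strand: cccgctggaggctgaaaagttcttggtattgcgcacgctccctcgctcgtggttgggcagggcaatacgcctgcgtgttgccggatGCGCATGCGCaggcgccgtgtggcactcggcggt
NDUFB3, chr2:201071911-201072030, plus strand: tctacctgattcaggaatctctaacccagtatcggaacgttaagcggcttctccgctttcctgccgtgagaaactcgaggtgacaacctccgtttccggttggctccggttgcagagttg
NDUFS7, chr19:1383817-1383936, plus strand: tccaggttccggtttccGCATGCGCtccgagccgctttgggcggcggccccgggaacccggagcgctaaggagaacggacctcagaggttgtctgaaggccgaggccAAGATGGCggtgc

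The capitals in NDUFA7 and at the end of NDUFS7 are the YY1 motif AAGATGGC, those at the start of NDUFS7 the NRF1 motif GCATGCGC, and those in NDUFA8 the NRF1 motif on both strands, overlapping. Searched on both strands, GCATGCGC was in the windows of 6 of the 31 members (19.4%) and of 3.68% of 27305 gene symbols. AAGATGGC was in 7 members (22.6%) and 3.52% of symbols, and the ETS motif CCGGAAG in 5 members (16.1%) and 12.2% of symbols. Of the 16 genes lower in both shIRE1 clones at 72 h, 13 had a window, and 3, 4 and 1 of them held the NRF1, YY1 and ETS motif. A match is a description of letters and not a site shown to be bound.

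The mRNAs of these regulators and of the rest of the machinery were measured alongside. The counts of these lists at 72 h stand beside 31.1% lower and 32.5% higher of all genes in shIRE1 clone 1, and 30.5% and 29.7% in shIRE1 clone 3. Of 8 nuclear regulators, 6 were lower and 1 higher in shIRE1 clone 1 at 72 h, and 4 and 1 in shIRE1 clone 3. NRF1 changed by -0.94 ± 0.06 (adjusted p = 9.19e-11) and -0.51 ± 0.08 (adjusted p = 6.04e-05), GABPA by -0.36 ± 0.06 and -0.44 ± 0.07, and PPARGC1A, the coactivator of mitochondrial biogenesis, by -0.96 ± 0.05 and -2.60 ± 0.07. YY1 was not called in either clone (0.03 and 0.03). In shXBP1 clone 1 PPARGC1A rose by 0.73 ± 0.07 (adjusted p = 2.97e-05).

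TFAM, the factor that packages mitochondrial DNA and starts its transcription, fell from 229 ± 12.5 to 135 ± 3.52 CPM (SD, n = 3) in shIRE1 clone 1 (-0.77 ± 0.05, adjusted p = 3.22e-11). It fell from 164 ± 2.01 to 121 ± 6.73 CPM in shIRE1 clone 3 (-0.45 ± 0.05, adjusted p = 1.71e-06), and was not called at 72 h in the shXBP1 clones. The 24 genes for transcription, processing and turnover of mitochondrial RNA went in both directions: at 72 h, 3 were higher and 11 lower in shIRE1 clone 1, and 7 and 3 in shIRE1 clone 3 (29.2% higher, beside 29.7% of all genes). Of them MTERF4 rose in both (0.31 ± 0.05 and 0.65 ± 0.05). Of 8 genes for copying mitochondrial DNA, 1 was higher and 5 lower in shIRE1 clone 1 and 3 and 3 in shIRE1 clone 3. POLG2, the accessory subunit of the polymerase, was higher (0.28 ± 0.06 and 0.27 ± 0.07) and DNA2, a nuclease and helicase, lower (-1.02 ± 0.05 and -1.47 ± 0.08).

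More nuclear subunits of the other complexes were called lower than higher in the shIRE1 clones. At 72 h, 9 of 15 genes of complex V were lower in shIRE1 clone 1 and 10 in shIRE1 clone 3, with 2 and 1 higher. For complex IV 6 and 8 of 10 were lower, with 1 and 0 higher, for complex III 6 and 3 of 9, with 0 higher in each, and for complex II 2 and 3 of the 3 tested, with 1 and 0 higher. The complex III count in shIRE1 clone 3, 33.3%, lies near the 30.5% of all genes. The medians of complex V were -0.20 and -0.28 log2, against 0.02 over all genes. COX5A changed by -0.34 ± 0.05 and -0.68 ± 0.09, UQCRH by -0.46 ± 0.06 and -0.61 ± 0.11, and SDHB by -0.40 ± 0.04 and -0.51 ± 0.06. ATP5G1, a gene of the rotor subunit c, changed by -0.51 ± 0.05 and -0.58 ± 0.10. ATP5G1 was lower in shXBP1 clone 1 and shXBP1 clone 18 too (-0.48 ± 0.07 and -0.52 ± 0.12, the latter -0.36 ± 0.08 without the library that resembled clone 1), and ATP5E was higher in both shIRE1 clones (0.14 ± 0.05 and 0.26 ± 0.08). Of 17 assembly factors of complex I, 5 were higher and 9 lower in shIRE1 clone 1 and 3 and 7 in shIRE1 clone 3. COA1 changed by -0.77 ± 0.06 and -0.91 ± 0.06, and TIMMDC1 rose by 0.22 ± 0.04 and 0.43 ± 0.05. In shXBP1 clone 1 at 72 h, 8 of the 17 assembly factors were lower and 0 higher (47.1% lower, beside 16.8% of all genes). There 4 of 15 genes of complex V, 3 of 10 of complex IV, 1 of 9 of complex III and 1 of 3 of complex II were lower. The only higher ones were 2 of complex III.

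Chaperones, proteases and stress genes, which respond when mitochondrial proteins are out of balance, were for the most part lower in the shIRE1 clones. Of 17 tested, 11 were lower and 1 higher at 72 h in shIRE1 clone 1, and 12 and 1 in shIRE1 clone 3. That is 64.7% and 70.6% lower beside 31.1% and 30.5% of all genes, and 5.88% higher in each beside 32.5% and 29.7%. The higher one was ATF5, a transcription factor of the mitochondrial unfolded protein response, at 68.0 ± 2.8 CPM against 33.9 ± 5.65 CPM in shIRE1 clone 1 (1.00 ± 0.08, adjusted p = 4.40e-09). It was at 64.8 ± 6.33 against 31.9 ± 0.494 CPM in shIRE1 clone 3 (1.01 ± 0.07, adjusted p = 1.26e-08). In the shXBP1 clones ATF5 changed by -0.91 ± 0.14 (adjusted p = 5.71e-04) and -0.43 ± 0.10 (adjusted p = 0.0201), the latter -0.39 ± 0.11 (adjusted p = 0.0411) without the library that resembled clone 1. ATF4 changed by -0.52 ± 0.05 and -1.31 ± 0.06 in the shIRE1 clones, the chaperonin HSPD1 by -0.49 ± 0.05 and -0.54 ± 0.07, and CHAC1, a target of ATF4, by -0.59 ± 0.12 and -3.73 ± 0.14. At 72 h, 3 of these genes were higher and 5 lower in shXBP1 clone 1, and 0 and 5 in shXBP1 clone 18, or 0 and 4 without the library that resembled clone 1. With all libraries, the lower ones made up 29.4% and 27.8% of those tested, beside 16.8% and 5.55% of all genes. The higher ones in shXBP1 clone 1 made up 17.6%, beside 16.8%. Plasma cell markers moved as well: of 9, 7 were lower and 1 higher at 72 h in shIRE1 clone 1 and 9 lower in shIRE1 clone 3, TNFRSF17 by -1.21 ± 0.04 and -2.54 ± 0.08. In shXBP1 clone 1, 3 were lower and 4 higher (33.3% and 44.4%, beside 16.8% and 16.8% of all genes). In shXBP1 clone 18, 5 were lower and 0 higher (55.6% lower beside 5.55%), or 5 and 1 without the library that resembled clone 1. XBP1, the target of the shXBP1 hairpins, is among the 9. Of 10 markers of other cells, 5 and 4 were tested in the shIRE1 clones, and 3 and 4 of them were higher at 72 h, KRT18 among them (3.37 ± 0.36 and 2.44 ± 0.26), at no more than 3.50 CPM in any library. Their part in the changes of the respiratory chain genes was not tested.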

How the data were processed

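RNA was taken from 48 libraries of poly(A)-selected, stranded mRNA, read from a single end. The deposited files are read counts per gene and log2 values from the authors for 18401 genes that match, within 5.0e-14, the log2 CPM that edgeR computes at its prior count of 2. The submitters' processing notes name GSNAP, R 4.1.3, edgeR 3.32.1, limma 3.46.0 and the builds GRCh37 and hg19, without saying what each was used for. How reads were assigned to overlapping or repeated genes and whether strand was used are not given in the sources used here. Coordinates, transcript lengths and GC content were read from a GRCh38 annotation by gene ID, which matched 57532 of the 58302 rows and all 50 members.

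Genes were filtered with filterByExpr (minimum count 10, minimum total 15), scaled by TMM and tested with the quasi-likelihood test of edgeR 4.0.16 in R 4.3.3, with Benjamini-Hochberg adjustment over all genes tested and a threshold of 0.05. Each clone was fitted on its 12 libraries (16603 to 17204 genes tested), and differences between clones or hairpins on all 48 (18445 genes tested). Alternatives were RLE factors, no filter, other sets of libraries, a scale from nuclear genes, DESeq2 1.42.0, limma 3.58.1 on the deposited log2 values, a replicate block, single clone pairs and each library left out. Per-gene scripts were tested on simulated data. Counts per library ranged from 19177855 to 40767202 (median 30776246.5), so 1 count was worth 0.052 CPM at the lowest depth. No pair of replicates agreed within counting noise.

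The members and the gene lists were chosen with earlier results of these data known. Named were all mitochondrial genes, NDUFA4, nuclear members called in the same direction in all clones at a time, those with the 3 largest mean rises and falls at 72 h among members called alike in both clones of a hairpin, the 3 most significant in each direction for the difference between hairpins at 48 h, and the largest rise and fall of each list in both shIRE1 clones. The values of 1 nuclear member are not reported here, though it is in the counts. Other nuclear members and NRF1, GABPA, YY1, ATF4 and HSPD1 were picked after their values were seen. The replicate numbers were not used as pairs in the main fit: deviations of same-numbered flasks correlated from -0.72 to 0.55, and all 3 pairs exceeded 0.1 in shXBP1 clone 1 at 72 h alone.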

Additional observations from a re-analysis of the deposited data

Results flagged for a closer look

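The responses of the hairpins differed, by the test of the difference itself, for 13 members at 24 h, 25 at 48 h and 28 at 72 h, or 26%, 50% and 56% beside 38.7%, 56.9% and 55.3% of all genes. Those of the shIRE1 clones differed from each other for 13, 10 and 12 members (26%, 20% and 24%, beside 28.2%, 30.8% and 27.5% of all genes), and those of the shXBP1 clones for 17, 23 and 11 (34%, 46% and 22%, beside 17.1%, 24.1% and 24.6%). At 48 h the largest differences between the hairpins on the log2 scale (shIRE1 minus shXBP1) were -1.26 for NDUFB3, -0.88 for NDUFA7, -0.77 for NDUFB10, -0.65 for NDUFS5 and -0.60 for NDUFC2. On the higher side they were 0.51 for NDUFS8, 0.58 for MT-ND1, 0.59 for NDUFV1, 0.65 for MT-CO1 and 0.78 for NDUFS7. NDUFS7 and NDUFS8 lost the call without shXBP1 clone 1, 0 h, replicate 1, at 0.40 and 0.32. Groups of 3 libraries were not tested for outlying values.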

How the results depend on the processing

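Most calls of single members held. No filter on low counts moved the most, losing 56 and gaining 106 of 1150 gene calls, while all 48 libraries in the fit lost 37 and gained 31 of 600, and only the 6 libraries compared lost 35 and gained 23 of 600. RLE factors in place of TMM changed 25 of 1150 (7 lost, 18 gained), a scale from nuclear genes 12 (5 lost, 7 gained), DESeq2 43 (11 lost, 32 gained) and limma on the deposited log2 values 34 (15 lost, 19 gained). With only the 6 libraries compared, members called in shXBP1 clone 1 at 24 h went from 23 to 11. In shXBP1 clone 18 the 0 calls at 24 h became 6 with no filter, 2 with all 48 libraries, 5 with only the 6 libraries compared, 3 with DESeq2 and 4 without the library labelled 72 h, replicate 3. Its 5 calls at 48 h became 1 with no filter, 1 with the replicate block and 15 with only the 6 libraries, and its 2 calls at 72 h became 7 with no filter, 5 with all 48 libraries, 1 with only the 6 libraries and 6 with DESeq2. With only shIRE1 clone 1 set against shXBP1 clone 1, the members that differed went from 13 to 5 at 24 h and from 28 to 18 at 72 h, 25 of 150 gene calls were lost, 5 gained, and 3 differences changed sign, among them that of NDUFA6 at 24 h (1.5e-04). The causes of these changes were not tested.

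With plain CPM of nuclear genes, the changes of the mitochondrial sum were -0.13, 0.10 and 0.12 log2 in shIRE1 clone 1 at 24, 48 and 72 h and -0.27 in shXBP1 clone 1 at 72 h. Those of the nuclear sum were 0.21, 0.14 and 0.13 in shIRE1 clone 1, 0.070, 0.0069 and 0.019 in shIRE1 clone 3, and 0.045, 0.099 and 0.053 in shXBP1 clone 18. The shift follows from the change of scale, which moves every gene of a library alike.

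With single libraries left out, the members called ran from 15 to 30 at 24 h, 15 to 25 at 48 h and 15 to 25 at 72 h in shXBP1 clone 1, where the fits with all libraries gave 23, 26 and 24, and from 0 to 5 at 48 h and 0 to 7 at 72 h in shXBP1 clone 18. They ran from 25 to 30, 31 to 33 and 32 to 35 in shIRE1 clone 1 and from 11 to 19, 25 to 29 and 24 to 29 in shIRE1 clone 3. A replicate block lost 33 and gained 2 of 1050 gene calls. With 3 flasks a group, changes of rows with few reads, such as NDUFV2, could be told from the spread between flasks only when large.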
